A study of Mus musculus with 18 samples.

Results

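The genes described here are subunits of the transcription factor NF-kB, its inhibitors, the gene of the cytokine TNF and genes that NF-kB is known to switch on, several of which dampen the pathway again. They were chosen by symbol, from a list of 10 genes, and a probe set was used only where the array annotation gives it exactly 1 gene. Of the 10, 9 had such a probe set (Nfkb2, Relb, Nfkbia, Nfkbie, Nfkbiz, Tnfaip2, Tnfaip3, Birc3 and Tnf), with 21 probe sets between them, out of 18193 genes and 34945 probe sets of 1 gene on the whole array; the other listed gene was not analysed here. All 9 passed the filter on low signals, as did 12877 genes in all.

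The series follows colitis-associated cancer in male ICR mice, an outbred strain, aged 6 weeks at the start and analysed with Affymetrix mouse genome arrays, 3 per group and 18 in all. Mice of the 5 disease groups received 1 intraperitoneal dose of the carcinogen AOM (azoxymethane, 10 mg/kg) on day 1, then dextran sulfate sodium (DSS, a chemical toxic to the gut lining) in drinking water, as 2% on days 8 to 14, 1.5% on days 29 to 33 and 1.5% on days 50 to 54. The groups were inflamed mucosa on day 14 (week 2, as the initial DSS course ended), low-grade dysplasia on day 28 (week 4, 14 days after that course), high-grade dysplasia on day 42 (week 6, 9 days after the DSS cycle before it), high-grade dysplasia with active inflammation on day 56 (week 8, 2 days after the last cycle) and carcinoma on day 140 (week 20, 86 days after it). Normal mucosa came from mice given saline and plain water, on day 14. No untreated mice of a later age were analysed, so stage, age and time since DSS cannot be told apart after week 2, and AOM cannot be told apart from DSS at any stage.

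In resting cells NF-kB dimers are held in the cytoplasm by inhibitors of the IkB family, and signals from receptors for TNF, interleukin 1 or microbial products lead to phosphorylation and loss of the inhibitors and to entry of the dimers into the nucleus. A slower, non-canonical branch runs through processing of the precursor p100, the product of Nfkb2, and through its partner RelB. Among the genes that the dimers switch on are their own inhibitors and enzymes that end the signal, so that mRNA of these genes is widely read as a trace of pathway activity in the inflamed gut, where epithelial cells, macrophages and stromal cells can all express them.

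In tissue RNA, fewer cells of a type and less RNA per cell cannot be told apart, nor can more cells and more RNA per cell, and this holds for every result below. Markers set the normal group apart from inflamed mucosa. The summed signal of 16 epithelial genes was 1625 to 42007 in inflamed mucosa, against 81880 to 87166 in normal mucosa. In inflamed mucosa 15 of the 16 passed as lower and all 10 neutrophil genes and 13 of 15 macrophage genes passed as higher. The epithelial sum cannot tell normal mucosa from low-grade dysplasia (61335 to 94834) or week 6 high-grade dysplasia (79336 to 81896), where it overlapped. In week 8 high-grade dysplasia and carcinoma it was lower on every array, at most 81484. The summed neutrophil signal was 579 to 647 in normal mucosa and at least 1111 on every disease array. Inflamed replicate 2 had the lowest epithelial level, a mean log2 difference of -4.87 from normal mucosa, against -1.35 and -2.55 in replicates 1 and 3. Low-grade dysplasia replicate 1 had a neutrophil mean 4.35 above normal mucosa on the log2 scale, within the range of the inflamed arrays (3.58 to 4.71), while replicates 2 and 3 had 1.66 and 0.53. Low-grade dysplasia replicate 2 also had a log2 ratio of the 3′ to the 5′ control probe set of Gapdh of 1.63, against -0.08 to 0.16 on the other 17 arrays, a difference commonly read as shortened RNA.

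For 4 of the genes, the bases before an annotated transcription start held letters of the kind NF-kB binds, and these are shown because the group is made of the pathway and its known targets. The sequences are the 250 bases before a start in RefSeq (GRCm38.p6), written 5′ to 3′ on the gene's strand. Capitals mark matches to the NF-kB consensus, GGGRNWYYCC, on either strand. Here R is A or G, W is A or T, Y is C or T and N is any base. The windows are Nfkb2 (chr19:46304487-46304736, plus strand, the first of its 3 annotated starts), Nfkbia (chr12:55492648-55492897, minus strand), Nfkbie (chr17:45555450-45555699, plus strand) and Tnfaip3 (chr10:19015411-19015660, minus strand, the first of its 2 annotated starts).
Nfkb2: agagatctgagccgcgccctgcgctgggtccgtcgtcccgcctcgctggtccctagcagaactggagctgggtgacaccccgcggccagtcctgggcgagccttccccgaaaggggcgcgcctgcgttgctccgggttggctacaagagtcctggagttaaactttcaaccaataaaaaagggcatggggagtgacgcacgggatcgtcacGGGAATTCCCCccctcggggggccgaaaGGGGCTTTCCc
Nfkbia: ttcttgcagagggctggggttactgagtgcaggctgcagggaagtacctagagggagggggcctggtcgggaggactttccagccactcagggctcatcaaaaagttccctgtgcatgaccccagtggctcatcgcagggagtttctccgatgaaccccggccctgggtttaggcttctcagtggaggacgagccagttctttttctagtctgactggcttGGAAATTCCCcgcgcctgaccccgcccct
Nfkbie: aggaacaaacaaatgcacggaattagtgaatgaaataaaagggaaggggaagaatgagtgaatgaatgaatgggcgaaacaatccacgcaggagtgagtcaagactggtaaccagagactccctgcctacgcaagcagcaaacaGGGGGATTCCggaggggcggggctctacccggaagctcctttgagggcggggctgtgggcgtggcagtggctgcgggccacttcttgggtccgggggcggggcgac
Tnfaip3: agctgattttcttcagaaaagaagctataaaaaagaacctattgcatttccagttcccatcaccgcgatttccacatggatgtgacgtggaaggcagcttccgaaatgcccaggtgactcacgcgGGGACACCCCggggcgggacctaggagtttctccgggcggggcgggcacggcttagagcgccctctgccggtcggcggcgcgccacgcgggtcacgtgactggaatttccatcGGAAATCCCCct
In Nfkb2 the capitals nearest to the start, bases -11 to -2, also match a stricter motif, GGG, any 2 bases and then TTTCC, and the longer run of capitals is made of 2 overlapping matches at -39 to -30 and -38 to -29. In Nfkbia the match lies at -29 to -20 on the opposite strand and meets the stricter motif as well. Nfkbie had its match at -106 to -97, and Tnfaip3 had 1 at -125 to -116 and 1 at -12 to -3. The last of these lies on the opposite strand and meets the stricter motif as well. Over all 32851 promoter windows of this length, the consensus occurred in 3.9% and the stricter motif in 1.41%. Among the 10 windows of the 7 listed genes with a sequence, 6 held the consensus and 4 the stricter motif. These genes are known NF-kB targets and were listed for that reason, so the counts describe them and test nothing. The windows of Tnfaip2, Birc3, Tnf and the other start of Tnfaip3 did not hold these letters, which says nothing on binding elsewhere, and no promoter sequence was used here for Relb or Nfkbiz.

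In mucosa inflamed for the first time, the subunits and feedback genes were higher as a group. Of the 9 genes, 7 rose in inflamed mucosa relative to normal mucosa and 0 fell (limma, Benjamini-Hochberg adjusted p under 0.05 over all 12877 genes), where 22.6% of all genes rose and 24.3% fell. For each of the 9, every inflamed array was above every normal array. This held for 29.3% of all genes, a share that does not serve for Tnf, which passed the filter only through disease arrays. The median log2 change was 1.05 over the 9 genes, against 0.01 over all genes tested. Fold changes below are on the scale of log2(signal + 16), which slightly understates those of dim genes.

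Of the subunits, Nfkb2, which encodes p100 and its processed form p52, had signals of 338, 419 and 390 in inflamed mucosa, against 196, 150 and 183 in normal mucosa. The groups were far apart, and the log2 change was 1.05 ± 0.16 (SE, n = 3 arrays each; limma adjusted p = 8.69e-05), a 2.07-fold increase. Relb, which encodes the partner of p52 in the non-canonical branch, had signals of 411, 372 and 409 in inflamed mucosa, against 275, 296 and 216 in normal mucosa. Its increase, 1.50-fold, was the smallest of those that passed, with a log2 change of 0.58 ± 0.13 and an adjusted p of 0.00169.

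Of the IkB genes, Nfkbia and Nfkbie rose and Nfkbiz did not pass. Nfkbia encodes IkB-alpha, the inhibitor that is degraded first and made again within the same response, and its probe set was the brightest of the group. It gave signals of 13296, 11974 and 14427 in inflamed mucosa, against 7205, 7126 and 6568 in normal mucosa, a log2 change of 0.92 ± 0.16 (limma adjusted p = 0.000331). The groups did not overlap, and a second, dimmer probe set of Nfkbia gave a larger difference, as described below. Nfkbie, which encodes IkB-epsilon, had signals of 692, 630 and 704 in inflamed mucosa, against 209, 143 and 166 in normal mucosa. All inflamed arrays were more than 3 times as bright as any normal array, and the change was 3.70-fold (log2 1.89 ± 0.32, adjusted p = 0.000233). Nfkbiz encodes IkB-zeta, a nuclear IkB protein that activates a subset of target genes. It had signals of 2965, 2399 and 2901 in inflamed mucosa, against 1234, 1353 and 1259 in normal mucosa. The groups did not overlap, but the spread of this gene in later lesions, which enters the shared error, was wide, and its log2 change of 1.09 ± 0.50 did not pass (adjusted p = 0.0885). Fitted on the 6 arrays of the 2 groups alone, the same change had an adjusted p of 0.000424.

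Among the targets and feedback genes, Tnfaip2, a gene induced by TNF whose product takes part in membrane protrusions, differed the most. Its signals were 855, 988 and 1125 in inflamed mucosa, against 272, 109 and 171 in normal mucosa, a 5.29-fold increase (log2 2.40 ± 0.34, limma adjusted p = 5.44e-05). The normal arrays of this gene were the more uneven, yet the lowest inflamed signal was above 3 times the highest normal signal. Tnfaip3 encodes A20, a ubiquitin-editing enzyme that ends NF-kB signalling. It had signals of 2191, 1114 and 2544 in inflamed mucosa, against 887, 1064 and 671 in normal mucosa. Inflamed replicate 2, the array with the lowest epithelial level, lay just above the highest normal array, and the log2 change was 1.08 ± 0.34 (adjusted p = 0.0166). That call was lost without inflamed replicate 1, inflamed replicate 3 or normal replicate 3 (adjusted p = 0.0572, 0.0826 and 0.0696). Birc3 encodes cIAP2, a ubiquitin ligase of the TNF receptor complex that blocks cell death. It had signals of 2547, 2086 and 2588 in inflamed mucosa, against 1484, 1365 and 1294 in normal mucosa, and rose 1.73-fold (log2 0.79 ± 0.23, adjusted p = 0.0109). When its probe sets were averaged, the change was 0.52 and did not pass (adjusted p = 0.0799).

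Tnf, the gene of the cytokine at the head of the pathway, was dim throughout. It had signals of 65.0, 48.0 and 98.5 in inflamed mucosa, against 43.4, 39.9 and 42.7 in normal mucosa, where the median of the whole table was 56.6. The groups did not overlap, but the log2 change of 0.54 ± 0.24 did not pass (limma adjusted p = 0.0811). Without inflamed replicate 2 it was 0.73 and passed (adjusted p = 0.0323).

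**Figure D1:**
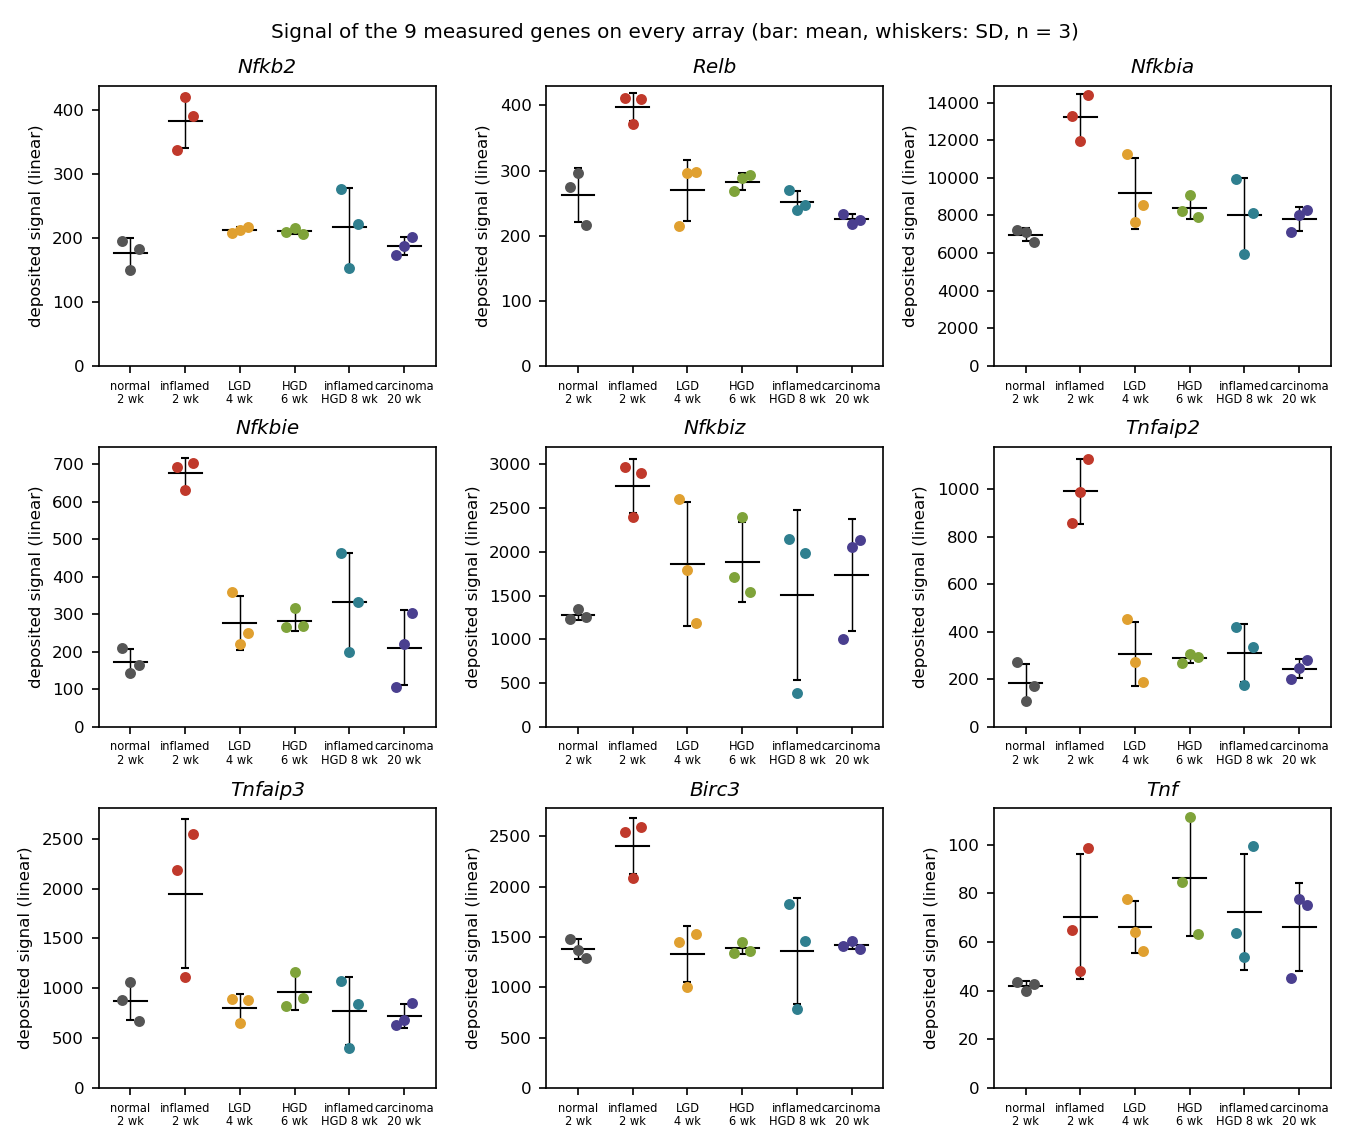
Deposited linear signal (vertical axis, from 0, with its own range for each gene) of 9 genes on each of 18 arrays, by group along the horizontal axis, with a bar at the mean and whiskers of 1 SD (n = 3). The inflamed arrays at week 2 lie above the normal arrays for every gene, while in week 8 lesions and carcinoma all but Tnf overlap normal mucosa, and Tnf is above all normal arrays at every stage.

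The probe sets that were not chosen to stand for a gene mostly moved the same way. Of the 12 others, 8 had all 3 inflamed arrays above all 3 normal arrays, 1 had them below and 3 overlapped. For Nfkbia, the probe set 1448306_at had signals of 4352, 3519 and 5381 in inflamed mucosa, against 1285, 1249 and 1012 in normal mucosa. This log2 difference of 1.87 was about 1 unit more than the 0.92 of the brighter probe set 1420088_at, so the size of the Nfkbia change depends on the probe set. For Nfkbiz, 1417483_at and 1448728_a_at were 1.09 and 0.75 higher in inflamed mucosa, whereas 1457404_at was 0.43 lower there and lower than normal in each later group too, by 0.58 to 1.23. Its transcript was not identified here. The others of Tnfaip2 and Nfkbie differed by 2.12 and 1.37, and the dimmer probe set of Birc3 by 0.26, with overlap.

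**Figure D2:**
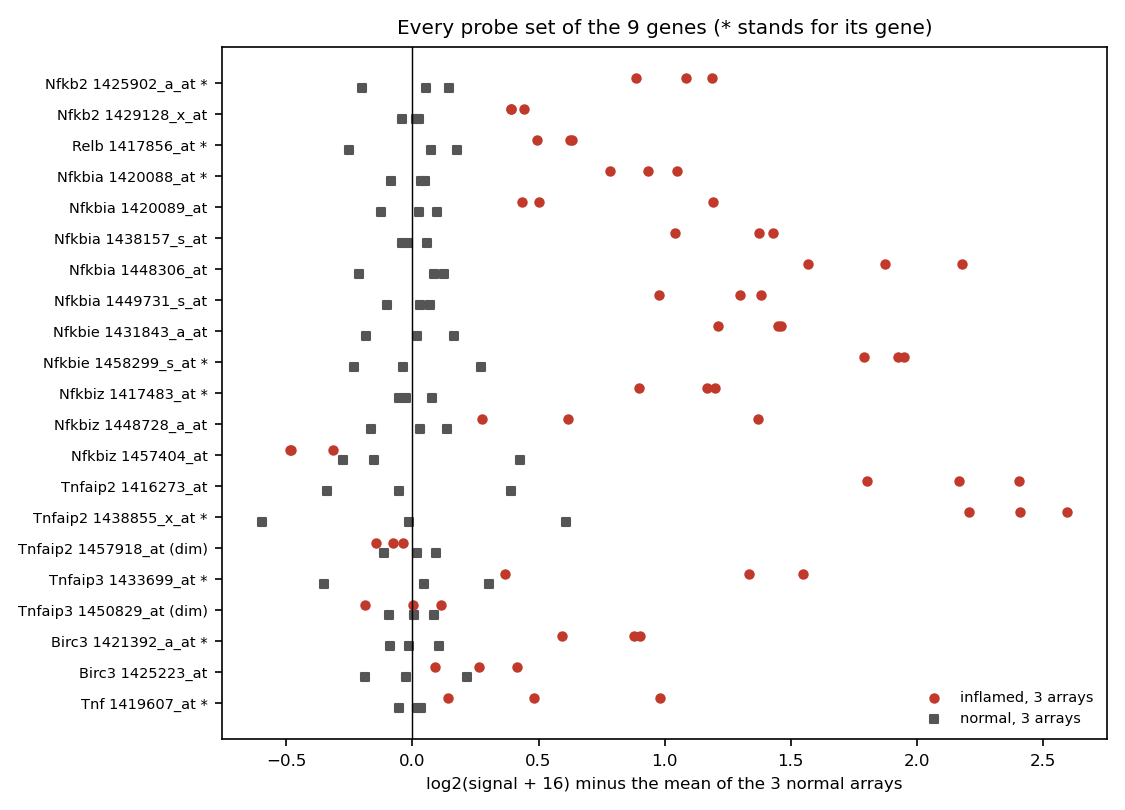
Difference in log2(signal + 16) from the mean of the 3 normal arrays (horizontal axis) for each of the 21 probe sets of the 9 genes (rows), with inflamed arrays as red circles and normal arrays as grey squares; a star marks the probe set that stands for its gene. Probe set 1457404_at of Nfkbiz is the exception to the right-hand position of the inflamed arrays among the probe sets that do not overlap.

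Other genes of the pathway were taken from lists by role, and the lists differed in how many of their genes rose. Over all genes, 22.6% rose and 24.3% fell in this comparison. Of 24 further NF-kB targets tested, 18 rose in inflamed mucosa and 0 fell, with a median log2 change of 2.79. The largest were the neutrophil-attracting chemokines Cxcl5 (7.61 ± 1.05, limma adjusted p = 5e-05) and Cxcl2 (7.11 ± 1.33), the cytokine Il6 (6.67 ± 0.90) and the iron-binding defence protein Lcn2 (6.63 ± 1.07). All 4 changes were at least 4 log2 units above that of any of the 9 genes. The other feedback genes were mixed, with 8 of 19 higher, 2 lower and a median of 0.28. Higher were among others Socs3, an inhibitor of cytokine signalling (3.62 ± 0.66), the early response gene Ier3 (3.28 ± 0.51), the MAP kinase phosphatase Dusp1 (2.64 ± 0.47) and the stress gene Gadd45b (1.40 ± 0.21). The 2 that fell, named after their values were seen, were Tax1bp1 (-1.34, adjusted p = 2.82e-05) and Itch (-0.80, adjusted p = 5.07e-05), whose products work with A20 in ending the signal. The gene of A20 itself, Tnfaip3, rose, and so did Tnip2 of this list, also named after its value was seen. Tnip1 and Rnf11 of this list, named after their values were seen as well, did not pass.

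Upstream of NF-kB, the receptors and adaptors rose more often than they fell, with 16 of 25 higher, 2 lower and a median log2 change of 0.42. The interleukin 1 receptor Il1r1 rose by 2.96 ± 0.33 and Irak3, an inhibitory kinase of that receptor, by 2.64 ± 0.33. Tnfrsf11a, the receptor of the ligand RANKL, and Tradd, the adaptor of the TNF receptor, were lower, with log2 changes of -1.61 ± 0.43 and -1.60 ± 0.28. The TNF receptor genes Tnfrsf1a and Tnfrsf1b, named because they bind the product of Tnf, rose by 1.27 (limma adjusted p = 5.08e-06) and 1.12 (adjusted p = 0.00735). Of 6 TNF family ligands tested beside Tnf, 3 rose and 0 fell: Tnfsf11, which encodes RANKL (3.71 ± 0.64), Tnfsf9 (1.25 ± 0.22) and Tnfsf13b, which encodes BAFF (0.91 ± 0.33). Of the other subunits, inhibitors and kinases, 4 of 15 rose, near the 22.6% of all genes, and 0 fell, with a median of 0.36. These 4 were the nuclear IkB protein Bcl3 (1.01 ± 0.32), the subunit Rela (0.64 ± 0.10) and the kinases Ikbke (0.56 ± 0.12) and Ikbkb (0.36 ± 0.13).

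**Figure D3:**
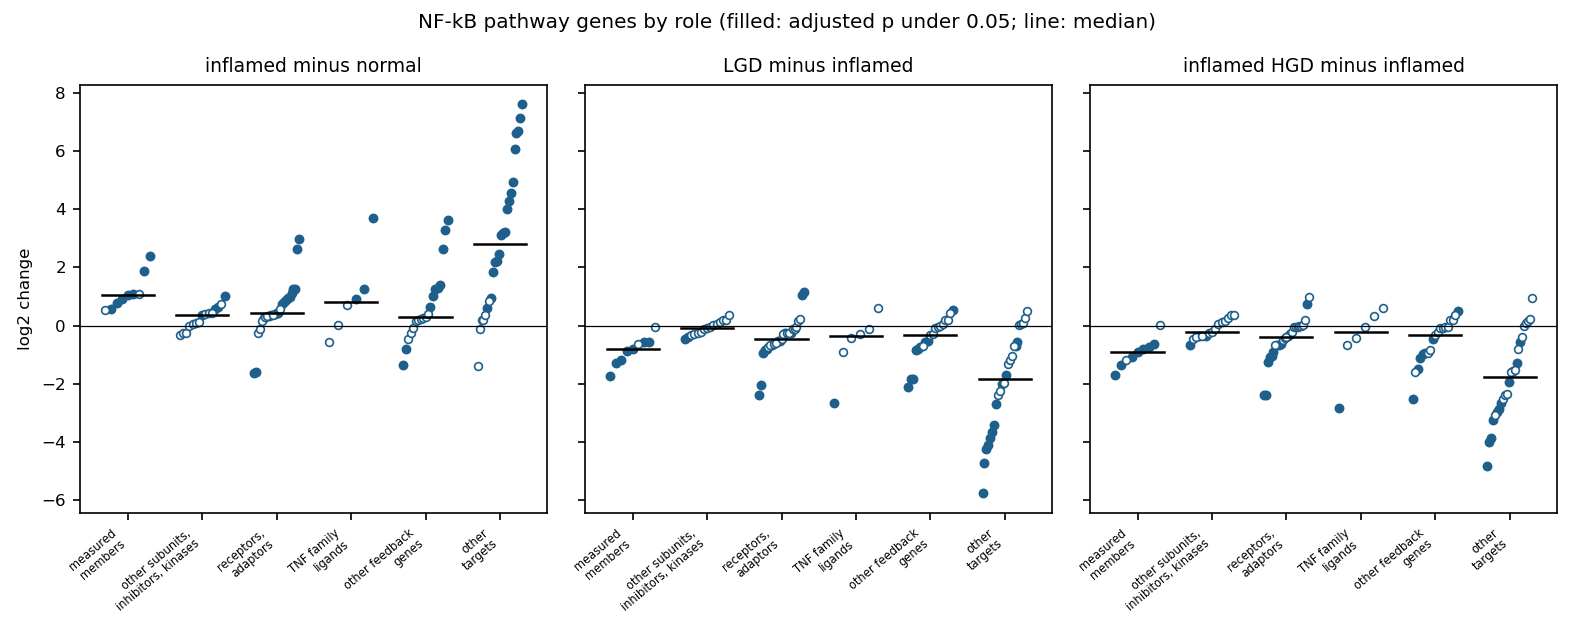
Log2 change (vertical axis) of each tested gene of the 6 lists (horizontal axis), in inflamed against normal mucosa (left), low-grade dysplasia against inflamed mucosa (middle) and week 8 high-grade dysplasia against inflamed mucosa (right); filled points had an adjusted p under 0.05 and lines are medians. The 24 other targets have a median of 2.79 on the left, and the 9 genes a median of 1.05.

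Markers of other cells moved with these increases, in a comparison where 22.6% of all genes rose and 24.3% fell. In inflamed mucosa all 10 neutrophil genes rose, with a median log2 change of 3.83, and their summed signal was 35288 to 57660, against 579 to 647 in normal mucosa. Macrophage genes rose in 13 of 15 cases (median 1.99), with a summed signal of 39302 to 50782 in inflamed mucosa, against 13762 to 18247 in normal mucosa. All 10 endothelial and all 11 fibroblast genes rose (medians 1.45 and 1.26), 1 of 10 B and plasma cell genes rose, and 0 of 8 T cell genes passed. Epithelial genes were lower in 15 of 16 cases (median -3.06) and colonocyte genes in 10 of 11 (median -3.63). None of these genes was at a signal of 0 on any array, the lowest signal in the table being 3.39. The part of these cell types in the change of the 9 genes was not tested.

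**Figure D4:**
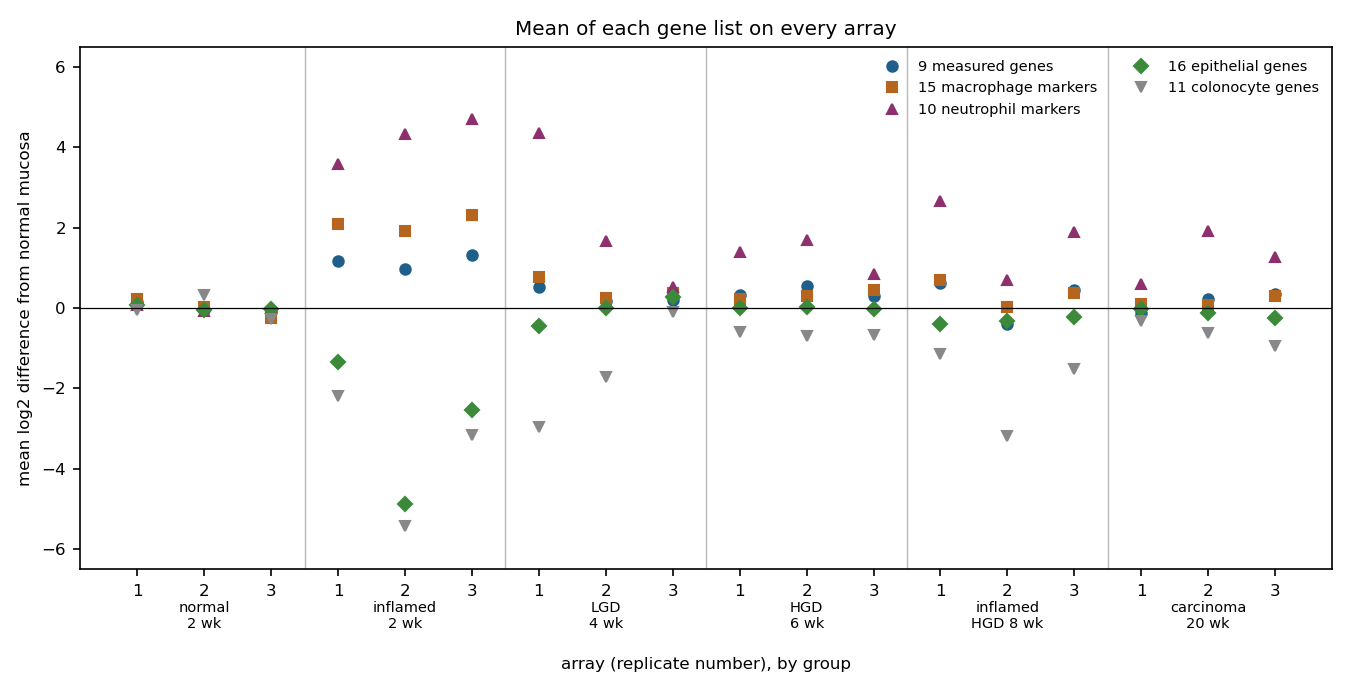
Mean log2 difference from normal mucosa (vertical axis) of 5 gene lists on each of the 18 arrays, by group and replicate number (horizontal axis). The 9 genes lie at 0.96 to 1.32 on the inflamed arrays and at -0.39 on replicate 2 of week 8, and the macrophage markers at 1.91 to 2.32 on the inflamed arrays.

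At week 4 most of these genes were lower than at week 2. Set directly against inflamed mucosa, 7 of the 9 genes fell in low-grade dysplasia and 0 rose, where 17% of all genes fell and 19.3% rose. They were the 7 that had risen at week 2, and for each of them every dysplastic array was below every inflamed array, as for 21.9% of all genes. The inflamed arrays serve in both comparisons, so the decline is no independent evidence of the rise. Tnfaip2 fell the furthest, to signals of 452, 274 and 190 in low-grade dysplasia, against 855 to 1125 in inflamed mucosa (log2 change -1.72 ± 0.34, limma adjusted p = 0.00127). Nfkbie fell to 359, 221 and 250 (log2 -1.27 ± 0.32, adjusted p = 0.00633) and Tnfaip3 to 892, 650 and 878 (log2 -1.19 ± 0.34, adjusted p = 0.0135). Replicate 1, the array with the high neutrophil genes, was the brightest of the 3 for each of these genes.

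The other declines at week 4 were smaller than 1 log2 unit. Birc3 had signals of 1452, 1007 and 1525 in low-grade dysplasia, and a log2 change of -0.87 ± 0.23 from inflamed mucosa (limma adjusted p = 0.00879). Nfkb2 had 208, 212 and 217 (-0.80 ± 0.16, adjusted p = 0.00129) and Relb 215, 296 and 298 (-0.55 ± 0.13, adjusted p = 0.004). The Nfkb2 arrays of this group were close together and all below the inflamed arrays. Nfkbia had 11264, 7669 and 8578 (-0.54 ± 0.16, adjusted p = 0.017), and its call was lost without inflamed replicate 3, low-grade dysplasia replicate 2 or low-grade dysplasia replicate 3 (adjusted p = 0.0685, 0.0848 and 0.0543), and on the 6 arrays alone (0.0502). That of Tnfaip3 was lost without inflamed replicate 3 or low-grade dysplasia replicate 2 (adjusted p = 0.0683 and 0.0582), and that of Birc3 with its probe sets averaged (0.0501). Nfkbiz, at 2605, 1789 and 1189, differed by -0.63 ± 0.50 (adjusted p = 0.349). Tnf, at 77.7, 64.3 and 56.4, lay within the inflamed range (-0.04 ± 0.24, adjusted p = 0.91).

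Part of the targets and receptors fell at the same step, at which 17% of all genes fell and 19.3% rose. Of the 24 other targets, 12 fell and 0 rose in low-grade dysplasia relative to inflamed mucosa, led by Il6 (-5.75 ± 0.90), Ccl2 (-4.70 ± 0.48), Cxcl1 (-4.24 ± 1.06) and Csf3 (-4.10 ± 0.42). Of 25 receptors and adaptors, 10 fell, among them Il1r1 (-2.39 ± 0.33) and Irak3 (-2.02 ± 0.33). The 2 that rose were Tnfrsf11a (1.15 ± 0.43) and Tradd (1.06 ± 0.28), the pair that had been lower in inflamed mucosa. Of 19 other feedback genes, 8 fell, led by Dusp1 (-2.12 ± 0.47), and 1, Itch, rose. Among the 8 were Tnip1, Tnip2 and Rnf11, named because they are taken up above. Of 6 ligands Tnfsf11 fell (-2.66 ± 0.64), and of 15 other subunits, inhibitors and kinases Ikbke (-0.46 ± 0.12) and Rela (-0.39 ± 0.10) fell. Neither of these last counts was above the share of all genes that fell. Among markers, 4 of 10 neutrophil, 11 of 15 macrophage, 8 of 10 endothelial and 4 of 11 fibroblast genes fell and 0 rose. Of 16 epithelial genes 15 rose and of 11 colonocyte genes 5, and 0 fell. Of 8 T cell genes 1 fell, and 0 of 10 B and plasma cell genes passed. The part of these cell types in the declines was not tested.

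Against normal mucosa, none of the 9 genes passed in any later group by limma. In low-grade dysplasia the count was 0 of 9, where 2.61% of all genes rose and 3.08% fell, and 1 of 9 had an unadjusted p under 0.05, against 24.4% of all genes. In week 6 high-grade dysplasia it was 0 of 9, where 0.621% rose and 0.52% fell, and 1 of 9 had an unadjusted p under 0.05, against 19.6%. In week 8 high-grade dysplasia it was 0 of 9, where 4.84% rose and 6.42% fell, and 2 of 9 had an unadjusted p under 0.05, against 30.2%. In carcinoma it was 0 of 9, where 0.326% rose and 0.575% fell, and 0 of 9 had an unadjusted p under 0.05, against 18.5%. Fitted on 6 arrays alone, Nfkbia, Nfkbie and Tnf passed in week 6 high-grade dysplasia (adjusted p = 0.0498, 0.0234 and 0.0205). The median log2 change over the 9 genes was 0.38, 0.27, 0.17 and 0.16 from week 4 to week 20, against medians over all genes between -0.02 and 0.03.

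Most later values lay above normal mucosa without passing the test. Of the 36 later values (9 genes at 4 stages), 28 were above 0. They share the 3 normal arrays and the genes vary together, so they are not 36 separate observations. The lowest adjusted p was that of Nfkbie in week 8 high-grade dysplasia (limma, log2 0.82 ± 0.32, adjusted p = 0.0975). Tnf, whose values are among the 28, is left out of what follows for a reason given below. In low-grade dysplasia every array was above every normal array for Nfkb2, Nfkbia and Nfkbie, where this held for 16.3% of all genes. In week 6 high-grade dysplasia it held for these genes and Nfkbiz, against 17.6%. In week 8 high-grade dysplasia and in carcinoma it held for none of the genes other than Tnf, against 15.5% and 14.4%. These values depend on the probe set. The dimmer Nfkb2 probe set, 1429128_x_at, was lower than normal in each later group, with log2 differences of -0.04, -0.14, -0.09 and -0.35. That of Birc3, 1425223_at, was lower too, at -0.41 to -0.12. The other probe sets of Nfkbia and 1416273_at of Tnfaip2 were higher in each later group.

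The group means of Tnf took a different order from those of the other 8 genes. Its signals were 77.7, 64.3 and 56.4 at week 4, 84.7, 112 and 63.2 at week 6, 63.8, 54.0 and 99.4 at week 8, and 45.3, 77.8 and 75.2 at week 20. All 15 arrays of the disease groups were thus above the 3 normal arrays, the highest of which was 43.4, although many lay near the median of the whole table. The 3 normal arrays were all below that median, so Tnf passed the filter on low signals only through disease arrays. That separation is therefore no test, and no share of all genes is given beside it. Its mean was highest in week 6 high-grade dysplasia, where the signals overlapped those of inflamed mucosa. The difference between these groups was not tested. As fitted on all 18 arrays, no single stage passed the test for Tnf, nor did the test over all 6 groups (limma moderated F, adjusted p = 0.148).

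High-grade dysplasia at week 8 came 2 days after a DSS cycle and was described as actively inflamed. Most of the genes were below their level of week 2, as were most neutrophil and macrophage markers. Relative to inflamed mucosa, 7 of 9 fell there and 0 rose, where 18.4% of all genes fell and 20.9% rose, and 8 of 9 had every array below every inflamed array, as for 20.7% of all genes. The log2 changes were -1.69 ± 0.34 for Tnfaip2, -1.34 ± 0.34 for Tnfaip3 and -1.06 ± 0.32 for Nfkbie (limma adjusted p = 0.00131, 0.00622 and 0.0163). They were -0.89 ± 0.23 for Birc3, -0.80 ± 0.16 for Nfkb2, -0.75 ± 0.16 for Nfkbia and -0.62 ± 0.13 for Relb (adjusted p = 0.00692, 0.00115, 0.00236 and 0.00154). On the 6 arrays alone the calls of Tnfaip3 and Birc3 were lost (adjusted p = 0.0827 and 0.0882). These 7 are the same genes as at week 4. Nfkbiz differed by -1.19 ± 0.50 (adjusted p = 0.0723), and passed without week 8 replicate 1 or 3 (0.0218 and 0.0414) and with its probe sets averaged (-0.96, 0.0422). Tnf differed by 0.04 ± 0.24 (adjusted p = 0.914). The first DSS cycle was given at 2% for 7 days and the last at 1.5% for 5 days, so dose and timing differ beside the stage. In the same comparison 7 of 10 neutrophil, 11 of 15 macrophage, 10 of 10 endothelial and 8 of 11 fibroblast genes fell. None of these marker genes rose. Of 16 epithelial genes 15 rose and of 11 colonocyte genes 4, and 0 fell. The summed neutrophil signal was 1714 to 23911, against 35288 to 57660 in inflamed mucosa. The part of these cell types in the declines was not tested.

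Week 8 replicate 2 was low across the genes. It was the lowest of the 3 for 9 of 9 genes, as for 33.4% of all genes tested. Nfkbiz had signals of 2149, 389 and 1982 in replicates 1, 2 and 3, Tnfaip3 had 1075, 399 and 845, and Nfkbie had 464, 200 and 332. In these 3 genes replicate 2 was well below the other arrays of its group, whereas for Relb (270, 239 and 247) it lay next to replicate 3. For Nfkbiz, Tnfaip3, Nfkbia (5970) and Birc3 (787) replicate 2 was below all normal arrays. The mean of the colonocyte genes on that array was -3.18 relative to normal mucosa on the log2 scale, that of the B and plasma cell genes -1.04, that of the T cell genes -0.91 and that of the neutrophil genes 0.71. Without it, the changes against normal mucosa were larger, at 1.13 for Nfkbie, 1.05 for Tnfaip2, 0.68 for Nfkbiz and 0.46 for Nfkb2, and still 0 of 9 passed (limma adjusted p = 0.0568, 0.0773, 0.2 and 0.0523). Against inflamed mucosa, the call of Nfkbie was lost without it (log2 -0.76, adjusted p = 0.0818), and 6 of 9 genes passed. With single arrays left out in turn, 333 to 2202 of all 12877 genes passed against normal mucosa and 3864 to 5532 against inflamed mucosa. The share of all genes without this array is not given here.

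Some further genes of the pathway did pass at week 8, where 4.84% of all genes rose and 6.42% fell against normal mucosa. Against normal mucosa, 5 of 24 other targets rose, namely Cxcl5 (5.23 ± 1.05), Lcn2 (4.10 ± 1.07), the adhesion molecule Icam1 (0.93 ± 0.28), the macrophage growth factor Csf1 (0.54 ± 0.16) and Bcl2l1, named after its value was seen, and 0 fell. The ligand Tnfsf9 rose (1.2 ± 0.22), as did Ier3 (1.79 ± 0.51) and the kinase Irak1 (0.34 ± 0.09). Tax1bp1 (-0.98 ± 0.17) and Tnip1 (-0.78 ± 0.19), which both encode partners of A20, fell, while Itch, Tnip2 and Rnf11 did not pass. Tnfsf9 and Tax1bp1 had also passed in low-grade dysplasia, in the same directions (0.84 ± 0.22 and -0.90 ± 0.17). In week 6 high-grade dysplasia Cxcl5 was the only gene of the 5 lists to pass (4.63 ± 1.05, limma adjusted p = 0.0495), and in carcinoma 0 genes of these lists passed. Relative to inflamed mucosa, 11 of the 24 targets, 11 of 25 receptors and adaptors and 6 of 19 feedback genes fell at week 8. Tradd and Itch rose, and over all genes 18.4% fell and 20.9% rose. Il6 (-4.80 ± 0.90), Ccl2 (-4.00 ± 0.48), Irak3 (-2.38 ± 0.33), Tnfrsf1a (-1.24 ± 0.13) and Dusp1 (-2.52 ± 0.47) were among those that fell.

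**Figure D5:**
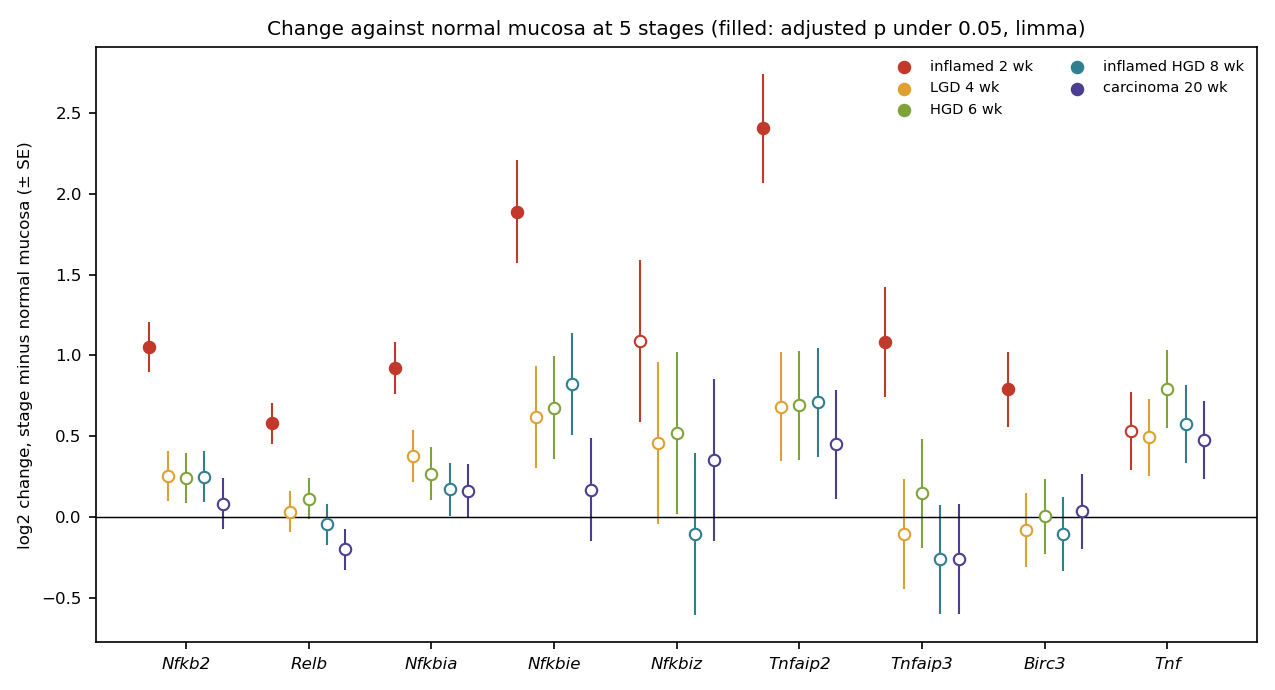
Log2 change against normal mucosa (vertical axis, ± SE) of 9 genes (horizontal axis) in 5 disease groups, shown in order of time within each gene; filled points had an adjusted p under 0.05 by limma. The 7 filled points all belong to inflamed mucosa, from 0.58 for Relb to 2.40 for Tnfaip2.

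Between the lesions themselves the genes did not pass. In week 6 high-grade relative to low-grade dysplasia, the log2 changes ran between -0.11 and 0.30, and 0 of 9 passed by limma. Over all genes 0% passed as well, with 6.99% at an unadjusted p under 0.05. Between week 8 and week 6 high-grade dysplasia they ran between -0.63 and 0.15 (0 of 9, with 0% of all genes and 3.28% at an unadjusted p under 0.05). Between carcinoma and week 8 high-grade dysplasia they ran between -0.65 and 0.46 (0 of 9, with 0% of all genes and 11% at an unadjusted p under 0.05). None of the 9 genes had an unadjusted p under 0.05 in these 3 comparisons. In carcinoma, signals were 173, 187 and 202 for Nfkb2, 233, 218 and 224 for Relb, and 7106, 8041 and 8317 for Nfkbia. For Nfkbie they were 106, 222 and 305, and for Tnfaip3 632, 677 and 855. Each of these sets overlapped the normal arrays. No order of levels among the lesions was resolved by these 3 comparisons, which does not show that the levels were equal.

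The test over all 6 groups gave the same 7 genes, but it includes the inflamed arrays and is no independent evidence of their rise. By limma's moderated F test 7 of 9 passed, where 45.3% of all genes did. The adjusted p was 0.000859 for Tnfaip2, 0.000943 for Nfkb2, 0.00283 for Relb, 0.00286 for Nfkbie, 0.00427 for Nfkbia, 0.0299 for Tnfaip3 and 0.0323 for Birc3, and it was 0.345 for Nfkbiz.

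Across the 18 arrays the genes varied together, a description in which arrays of a stage share that stage. Over the 36 pairs of genes, Pearson's r of the log2 values had a median of 0.737 and ran from 0.0675 for Relb with Tnf to 0.944 for Nfkb2 with Tnfaip2. Pairs with Tnf were the looser, at 0.0675 to 0.542. After each group's mean was subtracted, the median was 0.597 and 31 of 36 pairs were above 0. It ran from -0.311 for Relb with Tnfaip2 to 0.848 for Nfkbia with Birc3. All pairs below 0 were pairs with Relb, whose highest r was 0.364, with Tnfaip3. Single arrays thus tended to be high or low for several of the genes at once, Relb apart. No value over pairs of other genes is given beside this. Beside week 8 replicate 2, inflamed replicate 2 and carcinoma replicate 1 were the lowest of their group for 7 of 9 genes each, where 27.5% and 36.3% of all genes were lowest there.

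The genes whose log2 values followed the mean of the 9 most closely over the 18 arrays were, with r between 0.960 and 0.937, Adm, Fermt3, Hcls1, Tmem26, Tfec, Lcp2, Gngt2, Tnfsf11, Tnfaip8l2 and Rilpl2. Adm encodes the vasodilator peptide adrenomedullin, and Fermt3, Hcls1 and Lcp2 encode proteins of blood-derived cells. The nearest gene to each of the 9 was Osmr for Nfkb2 (r = 0.967), Ksr1 for Relb (0.913), Hcls1 for Nfkbia (0.970) and Icam1 for Nfkbie (0.960). It was Zc3h12a for Nfkbiz (0.894), Cyth4 for Tnfaip2 (0.963), Cfb for Tnfaip3 (0.920), Cxcl13 for Birc3 (0.931) and Prss22 for Tnf (0.824). Icam1 and Zc3h12a, an RNase that destroys cytokine mRNA, are themselves on the lists of targets and feedback genes.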

How the data were processed

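The 18 arrays are labelled as biological replicates, 3 per group. The labels do not say which replicates shared a cage or hybridisation. Per the submitters' processing notes MAS5 was used. The deposited values are intensities on a linear scale (3.39 to 24945), with array medians of 55.7 to 57.8, so the medians were close together as deposited. Array totals were not compared, and the exact scaling is not given in the sources used here. The number of arrays limits the precision. From the deposited intensity, log2(signal + 16) was taken without further normalization. Of 45101 probe sets, 34945 had 1 gene in the platform annotation, 932 several and 9160 none, and 64 were control probe sets. Probe sets above the table's median signal (56.6) on at least 3 arrays were kept (21653), the probe set of highest mean stood for its gene (5426 of 12877 genes had several), and limma 3.58.1 in R 4.3.3 (lmFit, eBayes with trend) was fitted on all 18 arrays with 6 group means. Changes passed at a Benjamini-Hochberg adjusted p under 0.05 over all genes of a comparison. The members, gene lists and tests were chosen with earlier results of these data known. The 9 measured members are all named; of each other list, up to 4 genes that passed, taken by size of change, and the closest genes by correlation; others are said to be chosen after their values were seen or named for a stated reason. Promoter letters came from RefSeq (GRCm38.p6). The scripts were tested on simulated data. Alternatives tried were no filter, another pseudocount, quantile normalization, no trend, averaged probe sets, no _s_at or _x_at probe sets, a replicate block, 6 arrays alone and single arrays left out.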

Additional observations from a re-analysis of the deposited data

Results flagged for a closer look

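The change against normal mucosa differed from that of inflamed mucosa in low-grade dysplasia and in week 8 high-grade dysplasia, the 2 later groups contrasted with it directly by limma, for 7 of the 9 genes each. Low-grade dysplasia minus inflamed mucosa gave log2 differences of -0.80 for Nfkb2, -0.55 for Relb, -0.54 for Nfkbia, -1.27 for Nfkbie, -1.72 for Tnfaip2, -1.19 for Tnfaip3 and -0.87 for Birc3. Week 8 high-grade dysplasia minus inflamed mucosa gave -0.80 for Nfkb2, -0.62 for Relb, -0.75 for Nfkbia, -1.06 for Nfkbie, -1.69 for Tnfaip2, -1.34 for Tnfaip3 and -0.89 for Birc3.

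Of the 12 probe sets of the same genes that did not stand for their gene, 8 also had every inflamed array above every normal array, while 1457404_at of Nfkbiz had them below (-0.43) and 3 overlapped. For the 8, the inflamed minus normal log2 differences were 0.41 for Nfkb2 (1429128_x_at), 0.71, 1.28, 1.87 and 1.22 for Nfkbia (1420089_at, 1438157_s_at, 1448306_at and 1449731_s_at), 1.37 for Nfkbie (1431843_a_at), 0.75 for Nfkbiz (1448728_a_at) and 2.12 for Tnfaip2 (1416273_at).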

How the results depend on the processing

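Over 1260 recomputed values of single genes, 1238 kept their side of the threshold, 14 no longer passed and 8 newly passed. The sign changed in 63, such as those of Relb in low-grade dysplasia and Nfkbiz at week 8 against normal mucosa, of which 0 passed in either fit. The causes of the changes below were not tested. Counts of the 9 genes called were 7 in inflamed against normal mucosa (6 to 8 with single arrays left out), 7 in low-grade dysplasia against inflamed mucosa (5 to 7), 7 in week 8 high-grade dysplasia against inflamed mucosa (6 to 8) and 7 by the F test (5 to 7); for the other comparisons they stayed at 0 with single arrays left out. On the 6 arrays of the compared groups alone, 3 of 9 passed in week 6 high-grade dysplasia against normal mucosa. There, the counts over all genes were 1633 for week 6 (147 on all 18 arrays), 50 for low-grade dysplasia (733), 761 for week 8 (1450) and 529 for carcinoma (116) against normal mucosa, 2925 for week 8 against inflamed mucosa (5065) and 1 for week 8 against week 6 (0). With single arrays left out, the counts over all genes were 5099 to 5794 for inflamed, 70 to 1787 for low-grade, 6 to 127 for week 6, 333 to 2202 for week 8 and 8 to 287 for carcinoma against normal mucosa. They were 3562 to 4845 and 3864 to 5532 for low-grade and week 8 against inflamed mucosa, 0 to 55 for week 6 against low-grade dysplasia, 0 to 2 for carcinoma against week 8 and 4321 to 6941 by the F test. Same-numbered arrays did not deviate together (45 pairs, r of -0.462 to 0.331, 11 over 0.1), so the numbers give no pairing. With the replicate block the counts over all genes were 31 for week 6 and 44 for carcinoma against normal mucosa, and the counts of the 9 genes were 7, 7 and 7 in the comparisons with inflamed mucosa, as without it. Quantile normalization moved the median change of all genes by at most 0.0171.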
